A study of Mus musculus with 2 samples.

Results

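The smooth muscle contractile genes *Acta2*, *Actg2*, *Tagln*, *Cnn1*, *Myh11*, *Myl9*, *Tpm1*, *Tpm2*, *Lmod1* and *Smtn* were examined in RNA-Seq of mouse primary chondrocytes and primary dermal fibroblasts. They were taken by gene symbol from the deposited count table, in which all 10 were found among 24421 rows. All 10 were among the 14730 genes with at least 10 counts summed over both libraries. The study used the comparison to find transcription factors that are more abundant in chondrocytes than in fibroblasts. It comprised 1 library of chondrocytes from the rib cartilage of newborn mice, kept for no more than 2 passages after digestion with collagenase, and 1 library of fibroblasts released with collagenase from newborn dorsal skin. Both cell types were suspended in a medium with fetal bovine serum and carried no engineered allele or treatment. The strain, the number of animals and the time in culture are not given in the sources used here.

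The libraries held 18788599 counts in chondrocytes and 17563724 counts in dermal fibroblasts. With a single library per cell type there is no replicate check on any difference, and no p-value was computed. Levels are given as the deposited counts and as counts-per-million (CPM), in which the library sizes were adjusted with trimmed mean of M values (TMM) factors. Beside each fold stands its 95% interval by the Clopper-Pearson method. It reflects the error of counting alone, and even this is a lower limit, because the reads carried no molecular identifiers. All 9 chondrocyte markers tested were over 2-fold higher in the chondrocyte library, with *Acan* at 148105 counts against 35. Of 10 markers of dermal fibroblasts, 9 were over 2-fold higher in the fibroblast library, with *Col1a1* at 322379 counts against 39143, and *Lum*, named after its values were seen, was the exception at 2881 against 3191.

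Smooth muscle cells contract when myosin, switched on by phosphorylation of its regulatory light chain, pulls on actin filaments whose surface carries tropomyosin, calponin and related proteins. Fibroblasts take up parts of this apparatus when they become myofibroblasts, the contractile cells of wounds and fibrotic tissue, for which smooth muscle α-actin is the usual marker. Many of these genes are controlled by serum response factor (SRF), which binds CArG boxes together with coactivators of the myocardin family, and some also by TEAD factors at MCAT motifs. Calponin, smooth muscle myosin heavy chain and smoothelin are regarded as markers of the mature smooth muscle cell, whereas tropomyosin genes are used by nearly all cells through alternative transcripts.

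Of the 10 genes, 6 exceeded 2-fold in the direction of dermal fibroblasts and 0 in the direction of chondrocytes. The 6 were *Myh11*, *Myl9*, *Actg2*, *Tagln*, *Lmod1* and *Acta2*, at folds from 2.77 to 4.92, and *Cnn1*, *Tpm1*, *Tpm2* and *Smtn* lay within 2-fold. Among all 14730 genes tested, 16.2% were over 2-fold higher in dermal fibroblasts and 12.0% were over 2-fold higher in chondrocytes. For all 6 the entire interval was above 2-fold, which held for 9.98% of all genes tested. The median log2 fold of the 10 genes, dermal fibroblasts over chondrocytes, was 1.50, beside a median of 0.00 over all genes tested. Among the 10644 genes with at least 208 summed counts, the number of the least counted member, 12.1% were over 2-fold higher in dermal fibroblasts. The summed counts of the 10 smooth muscle genes were 29787 in chondrocytes, or 0.159% of that library, and 56700 in dermal fibroblasts, or 0.323%.

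**Figure D1:**
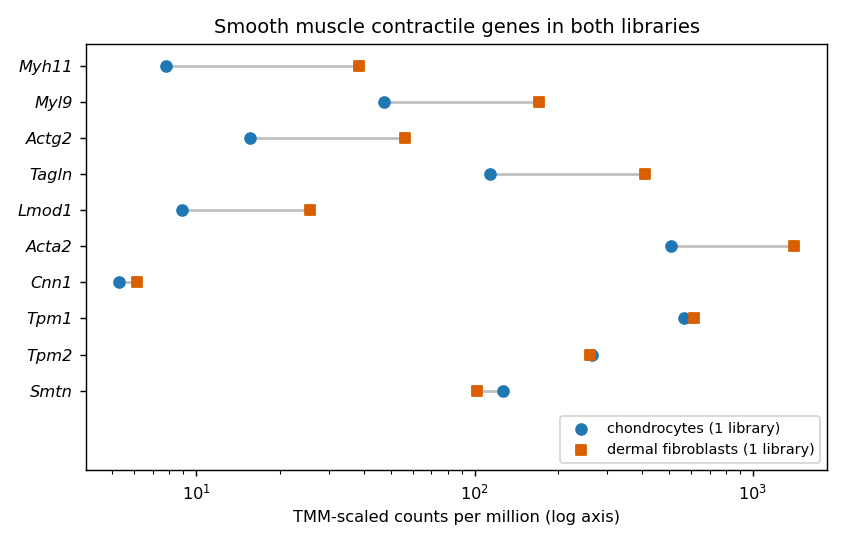
TMM-scaled CPM of the 10 genes on a log axis, with a circle for the chondrocyte library and a square for the dermal fibroblast library. The points of *Myh11*, *Myl9*, *Actg2*, *Tagln*, *Lmod1* and *Acta2* are far apart, and those of *Cnn1*, *Tpm1*, *Tpm2* and *Smtn* are close together.

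Of the smooth muscle actins, *Acta2* (GRCm38, chr19:34240336-34255585), which encodes smooth muscle α-actin, had 9075 counts in chondrocytes compared with 25773 in dermal fibroblasts. These are 506 and 1399.9 CPM, a 2.77-fold difference (interval 2.70 to 2.83). *Acta2* was the most abundant of the 10 genes per exon length in both libraries, at 284 and 786 CPM per kilobase. Among 13528 genes with a known length, it ranked 136 in chondrocytes and 44 in dermal fibroblasts. *Actg2* (chr6:83512909-83536251), the γ-actin of visceral smooth muscle, had 280 counts against 1032 and was higher in dermal fibroblasts, by 3.59-fold (interval 3.14 to 4.11). Per exon length it was far below *Acta2*, at 35.9 CPM per kilobase in dermal fibroblasts.

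The other actin genes differed less. *Actb* and *Actg1*, the cytoplasmic actins of all cells, were 1.09-fold and 1.10-fold higher in dermal fibroblasts, *Actc1*, the cardiac α-actin, was 1.06-fold higher, and *Acta1*, the skeletal α-actin, was 1.37-fold higher in chondrocytes (interval 1.32 to 1.42). With the libraries scaled by *Actb*, *Actc1* turned to the chondrocyte side. *Acta2* made up 8.11% of the counts of the 6 actin genes in chondrocytes (interval 7.95% to 8.27%) and 18.5% in dermal fibroblasts (interval 18.3% to 18.7%). *Actg2* made up 0.250% and 0.740%. These shares are taken within a library and do not depend on the scaling between libraries.

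Of the genes for the motor, *Myh11* (chr16:14194527-14292188), the smooth muscle myosin heavy chain, was counted 140 times in chondrocytes and 707 times in dermal fibroblasts. It had the largest fold of the 10 genes, 4.92 (interval 4.10 to 5.94), and 4.79% of all genes tested had a higher fold. Its level was nevertheless low, at 1.18 and 5.79 CPM per kilobase. *Myh9*, the main nonmuscle heavy chain, had 17704 and 30928 counts (1.70-fold, interval 1.67 to 1.73), and *Myh10*, another nonmuscle chain, was 1.18-fold higher in chondrocytes. *Myh11* therefore made up 0.661% of the counts of *Myh9*, *Myh10*, *Myh11* and *Myh14* in chondrocytes and 2.06% in dermal fibroblasts. *Myh14* had 330 counts in chondrocytes compared with 19 in dermal fibroblasts, the opposite direction (17.8-fold, interval 11.2 to 30.0).

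*Myl9* (chr2:156775408-156781657), the regulatory light chain of smooth muscle myosin, had 847 counts in chondrocytes compared with 3146 in dermal fibroblasts, or 47.3 and 171 CPM. It was higher in dermal fibroblasts, by 3.62-fold (interval 3.35 to 3.91). Its nonmuscle counterparts *Myl12a* and *Myl12b* had folds of 1.16 and 1.02, the latter with an interval from 0.947 to 1.10 and a direction that changed with the scaling (0.935 to 1.12), and *Myl9* took 8.47% of the counts of the 3 light chain genes in chondrocytes (interval 7.93% to 9.03%) and 22.7% in dermal fibroblasts (interval 22.0% to 23.4%).

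Of the actin-associated genes, *Tagln* (chr9:45929628-45936058), which encodes the actin-bundling protein transgelin or SM22α, had 2041 counts in chondrocytes compared with 7518 in dermal fibroblasts. It was higher in dermal fibroblasts, by 3.59-fold (interval 3.41 to 3.77), whereas its paralog *Tagln2* was 1.09-fold higher (4277 against 4784 counts). *Tagln* was the smaller part of the counts of both genes in chondrocytes, at 32.3%, and the larger part in dermal fibroblasts, at 61.1%. *Lmod1* (chr1:135324813-135368065), a leiomodin that nucleates actin filaments in smooth muscle, had 160 counts against 473 and was higher in dermal fibroblasts, by 2.88-fold (interval 2.40 to 3.47). Its striated muscle paralogs *Lmod2* and *Lmod3* were 1.43-fold and 1.26-fold higher in chondrocytes, with intervals that nearly reach equality (1.01 to 2.03 and 1.01 to 1.58). The share of *Lmod1* among the 3 leiomodins was 37.7% in chondrocytes (interval 33.1% to 42.5%) and 69.6% in dermal fibroblasts (interval 65.9% to 73.0%).

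*Cnn1* (chr9:22099221-22109221), which encodes calponin 1, an inhibitor of the actomyosin ATPase, differed from the other genes of this group. Its 95 counts in chondrocytes stood against 113 in the other library. The fold was 1.16 with an interval from 0.874 to 1.54, so that no difference was detectable at this depth. Its level was 5.30 and 6.14 CPM, the lowest of the 10 genes before division by length in both libraries. *Cnn2* and *Cnn3*, the calponins of nonmuscle cells, had 4247 and 6740 counts in chondrocytes and 7171 and 7092 in dermal fibroblasts. *Cnn1* made up 0.857% of calponin counts in chondrocytes and 0.786% in dermal fibroblasts, with overlapping intervals (0.694% to 1.05% and 0.648% to 0.944%).

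The tropomyosins were abundant and nearly level. *Tpm1* (chr9:67022590-67049672) had 10162 counts in chondrocytes against 11272. Its fold was 1.08 (interval 1.05 to 1.11), dermal fibroblasts over chondrocytes, and it ranged from 0.992 to 1.19 over the 6 scalings and so changed direction with them. *Tpm2* (chr4:43513726-43523583) had 4714 and 4789 counts. Its fold of 0.989 had an interval that spans equality, and its direction also changed with the scaling (0.909 to 1.09). Of the tropomyosins used mainly outside muscle, *Tpm3* was 1.16-fold higher in dermal fibroblasts, and *Tpm4* had 6755 counts in chondrocytes against 12496. Within the counts of the 4 genes, *Tpm1* made up 36.9% in chondrocytes and 31.7% in dermal fibroblasts, *Tpm2* made up 17.1% and 13.5%, and *Tpm4* made up 24.5% and 35.1%. *Smtn* (chr11:3517522-3539292), whose product smoothelin lies on actin filaments, was the only one of the 10 genes with its whole interval in the direction of chondrocytes. It had 2273 counts against 1877 and was 1.24-fold higher there (interval 1.17 to 1.32).

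**Figure D2:**
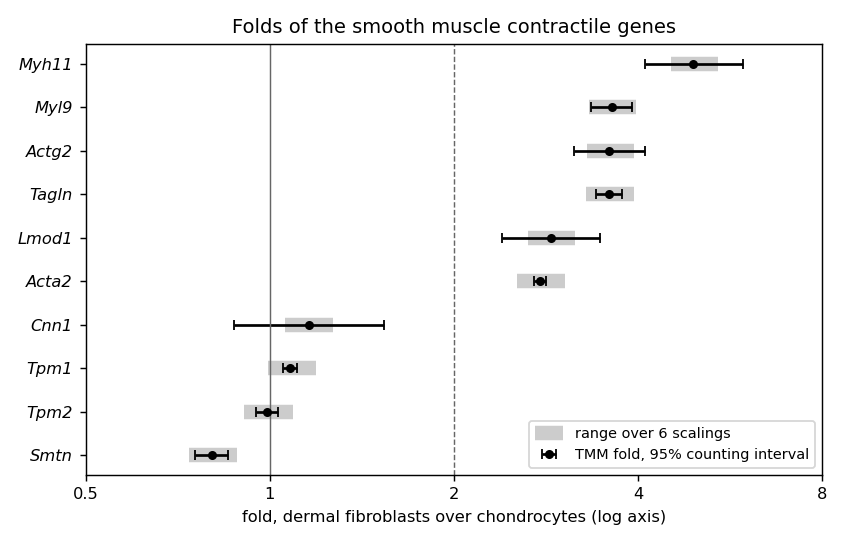
Fold of each gene, dermal fibroblasts over chondrocytes, on a log axis, with the 95% counting interval as the error bar and the range over the 6 scalings as a grey band (solid line at 1, dashed line at 2). For 6 genes the interval and the band lie above 2-fold, and for *Cnn1*, *Tpm1*, *Tpm2* and *Smtn* they lie below it.

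**Figure D3:**
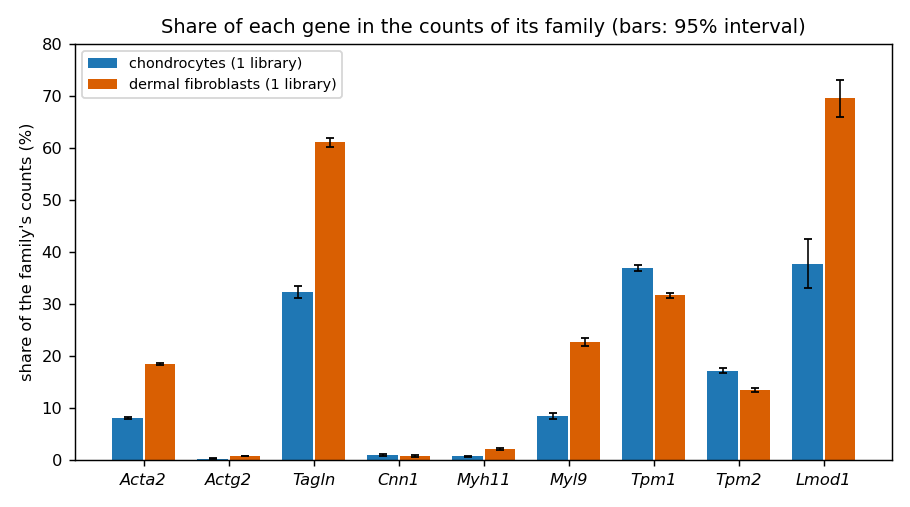
Share of 9 of the genes, all but *Smtn*, in the counts of their own gene families, in percent, in the chondrocyte library and the dermal fibroblast library, with 95% Clopper-Pearson intervals. The bars for *Acta2*, *Actg2*, *Tagln*, *Myh11*, *Myl9* and *Lmod1* are higher in dermal fibroblasts, and those for *Tpm1* and *Tpm2* are higher in chondrocytes.

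The order of the levels per exon length differed between the libraries. In chondrocytes *Acta2* was followed by *Tpm2* and *Tpm1*, at 90.4 and 87.4 CPM per kilobase with overlapping counting intervals, and then by *Tagln* (71.8), *Myl9* (40.7), *Smtn* (29.0) and *Actg2*. In dermal fibroblasts *Tagln* (257) and *Myl9* (147) came before *Tpm1* (94.4), *Tpm2* (89.4), *Actg2* (35.9) and *Smtn* (23.3). *Lmod1*, *Cnn1* and *Myh11* were the 3 lowest in both, at 1.18 to 2.26 CPM per kilobase in chondrocytes and 2.59 to 6.51 in dermal fibroblasts. Of neighbours among these 3, *Lmod1* and *Cnn1* in chondrocytes and *Lmod1* and *Myh11* in dermal fibroblasts had overlapping intervals. The order among the tropomyosins and *Myl9* depended on the length used. With the longest transcript in place of all exons, *Tpm1* came before *Tpm2* in chondrocytes (196 and 121 CPM per kilobase) and before *Myl9* in dermal fibroblasts (212 and 151).

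RefSeq promoters on GRCm38.p6, from 250 bases before to 50 bases after the start site, were at hand for 7 of the 10 genes: *Acta2*, *Cnn1*, *Myl9*, *Tpm1*, *Tpm2*, *Lmod1* and *Smtn*. They were searched on both strands for CArG boxes, for CArG-like boxes in which 1 of the 6 inner bases may be G or C, and for the MCAT motif CATTCC. A CArG box was found for 1 of the 7 genes, *Myl9*, and in 1.63% of all 32851 promoters. CArG-like boxes, a wider class that contains the CArG box, were found for 2 of the 7, *Acta2* and *Myl9*, and in 9.98% of all promoters. The MCAT motif was found for *Acta2*, *Tpm1*, *Lmod1* and *Smtn*, 4 of the 7, and in 14.7% of all promoters. Genes with the MCAT motif included both *Acta2* and *Lmod1*, over 2-fold higher in dermal fibroblasts, and *Tpm1* and *Smtn*, within 2-fold. The promoter window of *Tpm1* lies inside its RefSeq gene span. Its stretch is not printed, because part of it lies in an annotated protein-coding transcript. The stretches below show how the motifs are spaced in the other 4 genes with a motif. They run 5′ to 3′ with respect to the gene, and capitals mark the CArG-like boxes (10 bases) and MCAT motifs (6 bases).
*Acta2* (chr19:34255378-34255539, minus strand): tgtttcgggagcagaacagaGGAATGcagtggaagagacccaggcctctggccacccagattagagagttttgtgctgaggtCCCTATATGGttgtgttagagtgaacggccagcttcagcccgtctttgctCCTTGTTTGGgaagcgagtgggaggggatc
*Myl9* (chr2:156775283-156775394, plus strand): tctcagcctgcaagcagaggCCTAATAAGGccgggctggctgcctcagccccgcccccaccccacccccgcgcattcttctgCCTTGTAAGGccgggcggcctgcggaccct
*Lmod1* (chr1:135324663-135324708, plus strand): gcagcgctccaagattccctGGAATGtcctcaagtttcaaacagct
*Smtn* (chr11:3539489-3539534, minus strand): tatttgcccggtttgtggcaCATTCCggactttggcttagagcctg
Relative to the start site of the promoter table, the MCAT motif of *Acta2* begins at -146 and its CArG-like boxes begin at -84 and -34. That start site lies inside the RefSeq gene span of *Acta2*, downstream of its outermost end. In *Myl9* the CArG box begins at -161 and a further CArG-like box at -99. The start site used for *Myl9* also lies inside its RefSeq gene span, downstream of the outermost end. A match describes letters in the window and is not evidence of binding. *Lmod1* and *Smtn*, of which the former was higher in dermal fibroblasts and the latter was not, each have 1 MCAT motif in the window.

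The regulators of these genes lay on both sides of equality. *Srf* was 1.22-fold higher in chondrocytes (1830 against 1545 counts, interval 1.14 to 1.30), and its coactivators *Mkl1* and *Mkl2*, the myocardin-related factors of most cells, were 1.15-fold and 1.21-fold higher there. *Myocd*, the myocardin of cardiac and smooth muscle, had only 3 counts in chondrocytes against 24, which gave a fold of 7.79 with an interval from 2.37 to 40.4. Among the TEAD factors, *Tead3* was higher in dermal fibroblasts, by 2.85-fold (interval 2.53 to 3.21), *Tead4* was 2.83-fold higher in chondrocytes (interval 2.38 to 3.38), and *Tead1*, the most abundant, was 1.41-fold higher in dermal fibroblasts. Their cofactors *Yap1* and *Wwtr1* were within 2-fold. *Foxf1*, a forkhead factor of visceral mesenchyme, was 16.7-fold higher in chondrocytes (244 against 15 counts, interval 9.93 to 30.3). Of the 15 regulators tested, 2 were over 2-fold higher in dermal fibroblasts and 2 in chondrocytes, beside 16.2% and 12.0% of all genes tested. With TMM factors, 9 of the 15 had a fold over 1, and the median log2 fold was 0.18. The regulators not named here had folds from 1.13 to 1.72 in the direction of dermal fibroblasts.

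Further genes of the smooth muscle apparatus were also mixed. Of 16 such genes tested, 4 were over 2-fold higher in dermal fibroblasts, 2 of them with the whole interval, and 2 in chondrocytes. Of all genes tested, 16.2% and 12.0% were. The median log2 fold of the 16 genes was 0.11, or -0.02 with *Actb* scaling. *Cald1*, encoding the thin filament protein caldesmon, was the most abundant and was 1.83-fold higher in dermal fibroblasts (10503 against 19706 counts), and *Csrp1*, a LIM domain protein of smooth muscle, was 2.06-fold higher (interval 1.95 to 2.17). *Mylk*, the kinase that phosphorylates the regulatory light chain, was 1.32-fold higher in chondrocytes (1238 against 962 counts), and *Ppp1r14a*, an inhibitor of the opposing phosphatase, had 24 counts against 110. The last pair was named after the values were seen.

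Nonmuscle and striated muscle paralogs of the 10 genes differed from each other. Of 13 nonmuscle paralogs, 12 were within 2-fold, with *Myh14* as the exception, and their median log2 fold was 0.12. Among all genes tested, 12.0% were over 2-fold higher in chondrocytes and 16.2% in dermal fibroblasts. Of 15 striated paralogs tested, 5 were over 2-fold higher in chondrocytes, 3 of them with the whole interval, and 0 in dermal fibroblasts. Their median log2 fold was -0.51, and the myosin heavy chain genes *Myh6* and *Myh7* lay farthest out, at 6.39-fold and 5.84-fold higher in chondrocytes. *Myh6* had only 56 counts against 9 (interval 3.14 to 14.7). Reads of skeletal muscle genes were present in both libraries. Of 19 skeletal muscle markers, 11 were over 2-fold higher in chondrocytes and 0 in dermal fibroblasts, beside 12.0% and 16.2% of all genes tested. *Des* had 3790 counts against 1655 and *Myog* 3526 against 1728, and none of the 19 markers was at 0. Their summed level was 1236 CPM in chondrocytes and 607 CPM in dermal fibroblasts. Skeletal muscle also uses *Tpm1*, *Tpm2* and *Acta1*, and the part of these reads in the values of *Tpm1*, *Tpm2* and *Smtn* was not tested.

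Vessel wall cells express the smooth muscle genes as well, so markers of endothelium and of mural cells, the pericytes and muscle cells around vessels, are given beside them. Of 10 endothelial markers, 8 were over 2-fold higher in dermal fibroblasts and 0 in chondrocytes, beside 16.2% and 12.0% of all genes tested. *Kdr* had 70 counts against 276 and *Cdh5* 68 against 198. The whole interval was above 2-fold for 5 of the 10 markers, beside 9.98% of all genes tested. With *Actb* scaling, 6 of the markers exceeded 2-fold. Their median log2 fold of 1.52 was close to that of the 10 smooth muscle genes. Their summed level was low, at 22.8 CPM in chondrocytes and 67.4 CPM in dermal fibroblasts, and none was at 0. The mural cell markers had no common direction. Of 10 tested, 5 were over 2-fold higher in dermal fibroblasts and 3 in chondrocytes, beside 16.2% and 12.0% of all genes tested. None of the 10 was at 0. *Pdgfrb*, a receptor that fibroblasts also carry, was 5.09-fold higher in dermal fibroblasts, and *Cspg4* was 3.74-fold higher in chondrocytes. Of the markers more particular to pericytes, named after their values were seen, *Rgs5* had 48 counts against 33, *Abcc9* 43 against 123, and *Kcnj8* 3 against 27. In the same list, *Ndufa4l2* at 609 against 249 and *Gja4* at 11 against 4 went in the direction of chondrocytes. Summed over the list, mural cell markers stood at 964 CPM in chondrocytes and 1369 CPM in dermal fibroblasts. The part of vessel wall cells in the folds of *Acta2*, *Tagln*, *Myh11* and the other higher genes was not tested. In a bulk library, fewer cells of a type and less RNA per cell cannot be told apart.

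Genes of the matrix and signals known from myofibroblasts lay on both sides of equality. Of 17 tested, 9 were over 2-fold higher in dermal fibroblasts and 3 in chondrocytes, beside 16.2% and 12.0% of all genes tested. The median log2 fold of the 17 genes was 1.07. *Col1a1* and *Col3a1*, which also mark dermal fibroblasts as such, were 8.02-fold and 8.29-fold higher in dermal fibroblasts. *Fn1*, encoding fibronectin, was 5.96-fold higher in chondrocytes (674829 against 116258 counts), and *Thbs1*, encoding thrombospondin 1, was 1.40-fold higher there. Named after their values were seen, *Postn* was 7.13-fold and *Tgfb1* 3.39-fold higher in dermal fibroblasts, while *Ctgf* was 10.9-fold and *Cyr61* 2.19-fold higher in chondrocytes. *Ctgf* and *Cyr61* are known targets of YAP, TEAD and SRF signalling, and their direction was opposite to that of *Acta2* and *Tagln*.

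**Figure D4:**
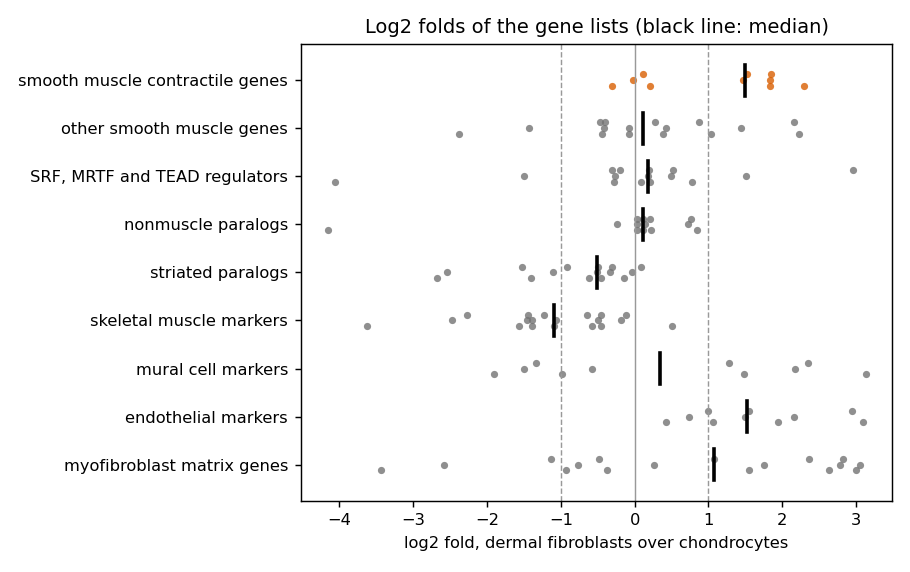
Log2 fold, dermal fibroblasts over chondrocytes, of each gene tested in 9 lists, with 1 point per gene, a black line at the list's median and dashed lines at 2-fold in each direction. The smooth muscle contractile genes (median 1.50) fall into a cluster around equality and a cluster above 2-fold, the endothelial markers (median 1.52) are all to the right of 0, and the regulators (median 0.18) scatter on both sides.

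The sequences of the 10 genes were also compared with those of their paralogs, whose reads could be counted for them. No window of 75 bases, the read length, from the annotated transcripts of the 10 genes was found unchanged in a protein-coding transcript of another gene. When 2 mismatches were allowed, 1.16% of the windows of *Myh11* matched *Myh9* or *Myh10* and 0 windows of the other 9 genes matched a listed paralog. *Tagln* shares 65 of its 1586 exon bases with *Pcsk7* (565 and 672 counts) on the opposite strand, and *Smtn* shares 714 of 4380 with the opposite-strand gene *Gm11946*. The libraries were stranded, but whether the counting used the strand is not given in the sources used here.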

How the data were processed

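RNA-Seq was performed on 1 library of chondrocytes and 1 library of dermal fibroblasts. Per the labels, base calls were made with CASAVA 1.8.2, and stranded mRNA reads were mapped to mm10 with TopHat2 2.0.13, Bowtie2 2.2.3 and SAMtools 0.1.19. The table deposited by the authors holds raw, whole-number counts of reads for each gene symbol, for 24421 rows, of which 27 carry a date as the gene name. The counting program is not given in the sources used here.

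Counts were divided by library sizes adjusted with TMM factors (edgeR 4.0.16, R 4.3.3), 0.9540 for chondrocytes and 1.048 for dermal fibroblasts. For folds, values below a floor of 3 counts were replaced by the floor, and folds over 2 were counted among genes with at least 10 summed counts. Intervals were computed with scipy 1.17.1 and tested on simulated data. Alternatives were 5 other scalings, among them DESeq2 1.42.0 size factors, floors of 1 and 10 counts, a pseudocount of 1, no filter, a fold over 4 and the whole interval over 2-fold. Exon lengths, shared exon bases and transcript windows came from GENCODE vM1 (NCBIM37), whose coordinates are not printed; a length was known for 91.8% of the genes tested. Gene positions and promoters are those of RefSeq on GRCm38.p6, the build the authors mapped to.

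All 10 members are named. Of each other list, the 4 genes with the most scaled counts were to be named, and any regulator or paralog. A gene that this rule names is not reported here. Shares within gene families, lengths of the longest transcript and the background at the members' depth were added after the data were seen. The members and all lists were chosen with earlier results of these data known.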

Additional observations from a re-analysis of the deposited data

How the results depend on the processing

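No paired analysis was possible because there was 1 library per group, which also left no replicate to leave out. The 6 genes over 2-fold higher in dermal fibroblasts stayed so under the 5 other scalings and with the whole interval over 2-fold. The other floors and leaving out the filter could not change this, because each of the 10 genes had at least 95 counts in each library. The pseudocount of 1 hardly could for the same reason. Of the 10 genes, 0 were over 2-fold higher in chondrocytes in any of these settings. With a fold over 4, only *Myh11* was left, so that the count was 1. The median log2 fold of the 10 genes ranged from 1.37 with *Actb* scaling to 1.63 with total counts. Relative to TMM factors, total counts moved every log2 fold by 0.14 and *Actb* by -0.12. A scaling moves all genes together, and the lowest log2 fold of the 6 genes was 1.47. Shifts of this size could therefore not bring any of them below 2-fold. Of 80 single-gene values under the alternatives, which include the floors and the pseudocount, 14 lay outside the counting interval of the reported fold, all under another scaling. Of the genes past the threshold 0 changed direction, a change that these settings could hardly have produced. Over all genes, a fold over 4 left 929 genes higher in dermal fibroblasts and 713 in chondrocytes, and the whole interval over 2-fold left 1470 and 968, both by construction stricter. Depth limits *Cnn1*, *Myocd* and the pericyte markers with few counts. Variation between animals and cultures was not measured.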

Other observations

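With 2 libraries, each gene has 1 fold, and likeness to the smooth muscle genes can only mean a similar fold. Among genes with at least as many scaled counts as the median member, the 3 nearest to the members' median log2 fold were *Fasn*, encoding fatty acid synthase (3823 counts in chondrocytes against 11099 in dermal fibroblasts), *Pcolce*, encoding an enhancer of procollagen processing (6769 against 19665), and *Esyt2*, encoding a membrane tethering protein (1562 against 4492). Their folds were 2.83, 2.83 and 2.80.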
